A study of Mus musculus with 28 samples.

Results

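The 35 genes described here were chosen as near level through the first 60 h of C2C12 muscle differentiation and higher at 96 h. The log scale used for this choice flattens differences at low levels. Without that scale, the group means up to 60 h spanned more than 2-fold in 8 of the 35 genes. C2C12 is an immortal mouse myoblast line, labelled wild type here, which stops dividing in low serum and forms long fused cells, the myotubes. RNA was measured in growth medium (GM), which holds 20% fetal bovine serum, and after 12, 24, 48, 60 and 96 h in differentiation medium with 3% horse serum (DM12h, DM24h, DM48h, DM60h and DM96h). The medium was switched at 90% confluence. There were 3 strand-specific RNA-seq libraries per group, 18 in all. Open chromatin (ATAC-seq, 2 libraries per condition) and chromatin contacts (Hi-C, 3 libraries per condition) were measured at DM60h and in GM. All groups come from 1 cell line grown without nerve, load or other tissue, and the labels do not say whether replicates were separate cultures, so any p-value measures the spread between these libraries.

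The 35 genes were chosen by their RNA values. Counts were scaled to counts per 1000000 (CPM) of each library's total, and group means were taken of log2(CPM+1). Of 22215 protein-coding genes, 10487 had a DM96h mean of at least 2, and 284 of those also exceeded their DM60h mean by at least 1. The means of GM, DM12h, DM24h, DM48h and DM60h lay within 0.7 of each other in 35 of the 284. In the other 249 the earlier means lay further apart, with a DM60h mean above GM in 182 and below it in 67. All 18 libraries entered the choice, so the RNA levels of the 35 genes are a description and carry no test. Scaled to protein-coding totals in place of all counts, 36 genes met the rule, of which 22 were among the 35, and Myl2, Fbxo40, Padi2 and Shroom3 were lost. Without DM60h library 2, Myl2 also fell outside the limit on the earlier means.

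During myogenesis, MyoD-family factors and MEF2 proteins first switch on embryonic and neonatal contractile genes. Adult and fibre-type isoforms of the sarcomere, the calcium-handling membranes and the membrane cytoskeleton follow as myotubes mature, and much of that later step depends on nerve and load in the animal.

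**Figure D1:**
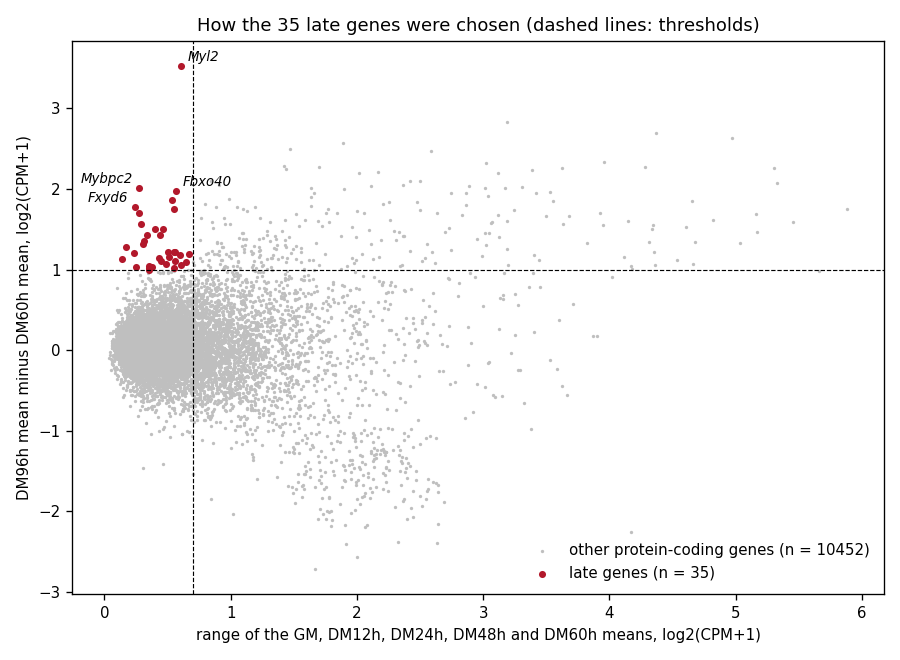
Each point is a protein-coding gene with a DM96h mean of at least 2 in log2(CPM+1); the x axis is the range of the 5 earlier group means and the y axis is the DM96h mean minus the DM60h mean, both in log2(CPM+1). The 35 late genes (red) fill the area above 1 and left of 0.7 that defines them, and Myl2 stands highest with a difference of 3.53.

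The difference between DM96h and DM60h ran between 1.00 and 3.53 over the 35 genes, with a median of 1.21, against a median of 0.016 over the protein-coding genes with a DM96h mean of at least 2. The values of the 35 genes reflect the choice, while the median of 0.016 is over genes not chosen by this difference. Just inside the threshold of 1 lay March11 at 1.00, Ppp1r12b at 1.02 and Zfp106 at 1.02, and just outside it lay Mttp at 0.998, Abca2 at 0.992 and Cdc73 at 0.991. On the range of earlier means, Dvl3 at 0.671, Uso1 at 0.645 and Myl2 at 0.608 were the last inside, while Cpeb2 at 0.701, Pcdh1 at 0.708 and Sh3bp4 at 0.757 were the first outside. On the DM96h floor, Slc26a7 at 2.00, Fxyd6 at 2.01 and Crym at 2.22 were just in, and Dmd at 1.96 and Hspb7 at 1.95 were just out.

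All 35 genes passed the filter on low counts, and all 35 were called higher at DM96h than at DM60h by edgeR's quasi-likelihood test, where 22.6% of the 15303 genes tested were called higher. In all 35, each of the 3 DM96h libraries lay above each of the 15 earlier libraries, as in 12.6% of the protein-coding genes tested. The rule used this contrast, so nothing is read from either count. Over the highest of the 5 earlier group means, the DM96h mean CPM was between 1.53 and 30.6 times as high, with a median of 2.30, and under 2 times in 12 genes. Dvl3 came closest to overlap: its lowest DM96h library had 7.48 CPM and its highest earlier library, at DM24h, had 7.27 CPM.

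**Figure D2:**
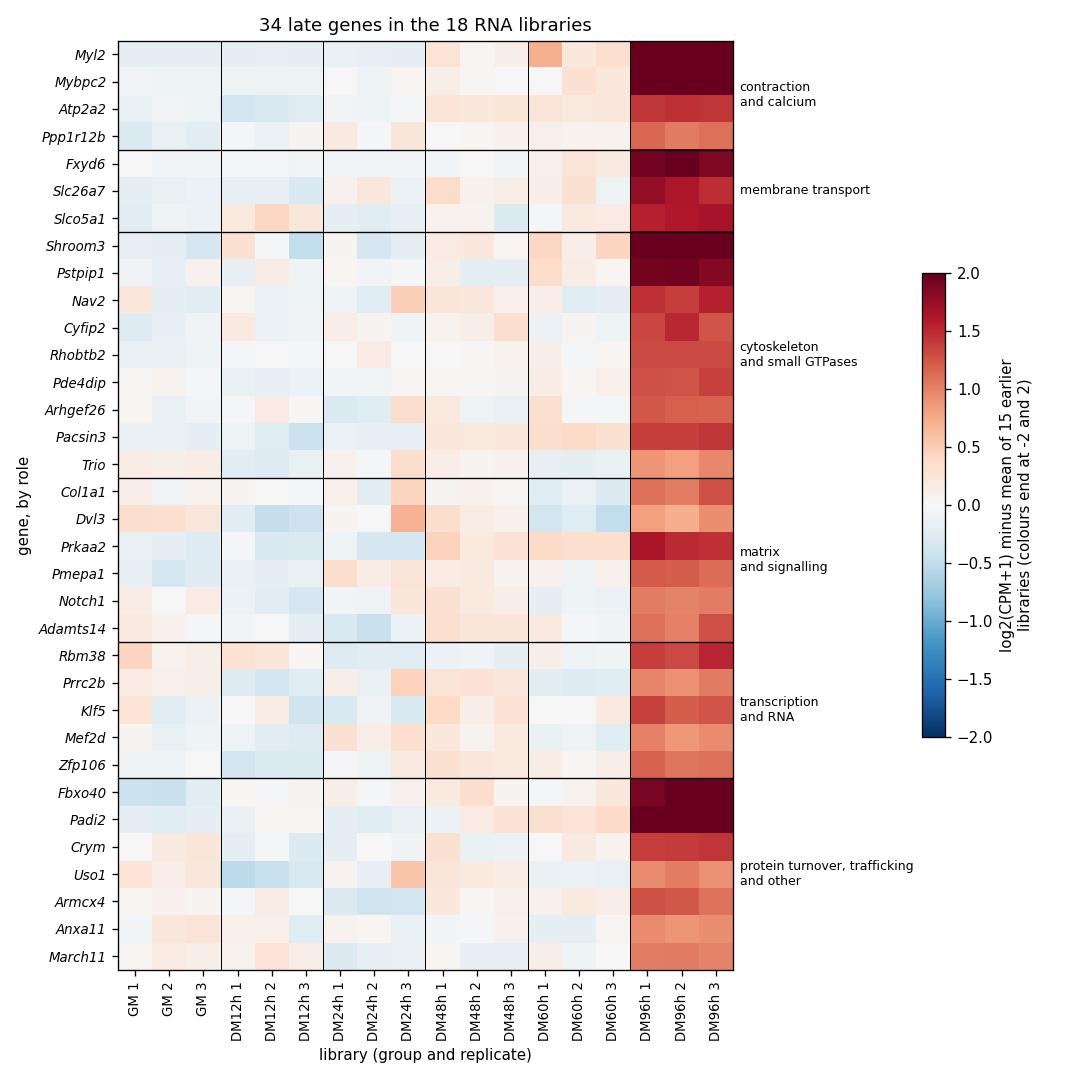
Rows are 34 of the late genes grouped by role and columns the 18 RNA libraries in time order; colour gives log2(CPM+1) minus the gene's mean over the 15 earlier libraries. The 3 DM96h columns are red in every row, while the earlier columns are pale, with small common dips at DM12h in Uso1 and Prrc2b and a higher DM24h library 3 in Nav2, Dvl3 and Arhgef26.

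Contractile and calcium-handling genes gave the largest difference. Myl2 encodes the regulatory light chain of slow and cardiac myosin, which sits on the neck of the myosin head. Its CPM was 0, 0 and 0 in GM, 0, 0.0275 and 0 at DM12h, and 0.0347, 0.0292 and 0 at DM24h. It was 0.392, 0.180 and 0.248 at DM48h, 0.873, 0.324 and 0.427 at DM60h, and 17.1, 16.6 and 16.0 at DM96h. GM, DM12h and DM24h therefore held at most 1 read per library, and a few reads appeared at DM48h and DM60h. The DM96h libraries stood far above every other with no overlap, and none of the 35 genes overlapped. In reads, the DM96h libraries held 535, 510 and 488 and the DM60h libraries 22, 9 and 14, a ratio of mean CPM of 30.6. A count of 0 allows up to 3 reads, or between 0.0824 and 0.124 CPM in these libraries, so absence in GM cannot be told from a very low level, and this limit covers counting error only.

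Myl2 was the single late gene with an ATAC-seq peak within 1000 bases of its start at DM60h and none there in GM. This depends on the limit of 1000 bases. Further upstream, a GM peak lay at -1711 to -1297 bases from the first listed start, with a fold enrichment of 4.64. The DM60h peak at that place, -1638 to -1309, had 3.30. RefSeq (GRCm38.p6, the mm10 build of the files) lists the gene on the plus strand at chr5:122092724-122113473 and gives 2 start sites. The DM60h peak at chr5:122092611-122093579 lies over both, and its fold enrichment in the authors' list, 3.71, was above that of 67.9% of the peaks of that list. The windows of 250 bases before and 50 bases after each start are shown because they lie within or across that peak. Capitals mark CAGCTG, the E-box favoured by MyoD-family factors, and TATAAA read on the opposite strand.
Myl2 start 1, chr5:122092474-122092773, plus strand: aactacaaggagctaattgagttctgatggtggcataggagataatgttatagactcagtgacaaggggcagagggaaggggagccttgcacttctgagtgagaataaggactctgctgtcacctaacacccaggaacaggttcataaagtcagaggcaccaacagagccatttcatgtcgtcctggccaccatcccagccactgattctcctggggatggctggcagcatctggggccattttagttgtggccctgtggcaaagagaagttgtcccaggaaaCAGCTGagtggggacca
Myl2 start 2, chr5:122092939-122093238, plus strand: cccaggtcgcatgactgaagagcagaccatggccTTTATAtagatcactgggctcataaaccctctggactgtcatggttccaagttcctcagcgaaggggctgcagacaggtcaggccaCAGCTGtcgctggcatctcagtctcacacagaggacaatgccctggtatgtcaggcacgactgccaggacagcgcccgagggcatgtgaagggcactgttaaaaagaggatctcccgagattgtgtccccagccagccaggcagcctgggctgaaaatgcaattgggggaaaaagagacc
The E-box of the first window begins at position 34, where the start is position 1 and there is no 0, and that of the second at -130, with the reversed TATAAA at -216.

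Mybpc2, the fast-fibre form of myosin-binding protein C that ties thick filaments together, had 3.96, 4.16 and 3.55 CPM at DM96h, against 0.0794, 0.324 and 0.244 CPM at DM60h. The DM96h libraries held 124, 128 and 108 reads, against 2, 9 and 8 reads at DM60h. Each earlier library held at most 9 reads of it, so its ratio of 18.02 rests on few reads in the lower group. Mybpc2 had a peak within 1000 bases of its start in both conditions. The DM60h peak, chr7:44524595-44525777, covered the start, and the GM peak, chr7:44524686-44525743, lay just upstream of it. Its window is shown as the counterpart of Myl2, since peaks of both conditions overlap it; the capitals mark GGAATG, a TEAD-type motif, which begins at -62, and the window holds no CAGCTG.
Mybpc2, chr7:44524620-44524919, minus strand: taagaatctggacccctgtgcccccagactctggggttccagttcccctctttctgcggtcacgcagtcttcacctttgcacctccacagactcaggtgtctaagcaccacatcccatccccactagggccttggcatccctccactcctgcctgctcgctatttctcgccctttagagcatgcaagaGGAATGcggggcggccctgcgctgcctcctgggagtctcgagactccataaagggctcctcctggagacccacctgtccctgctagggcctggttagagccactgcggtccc

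**Figure D3:**
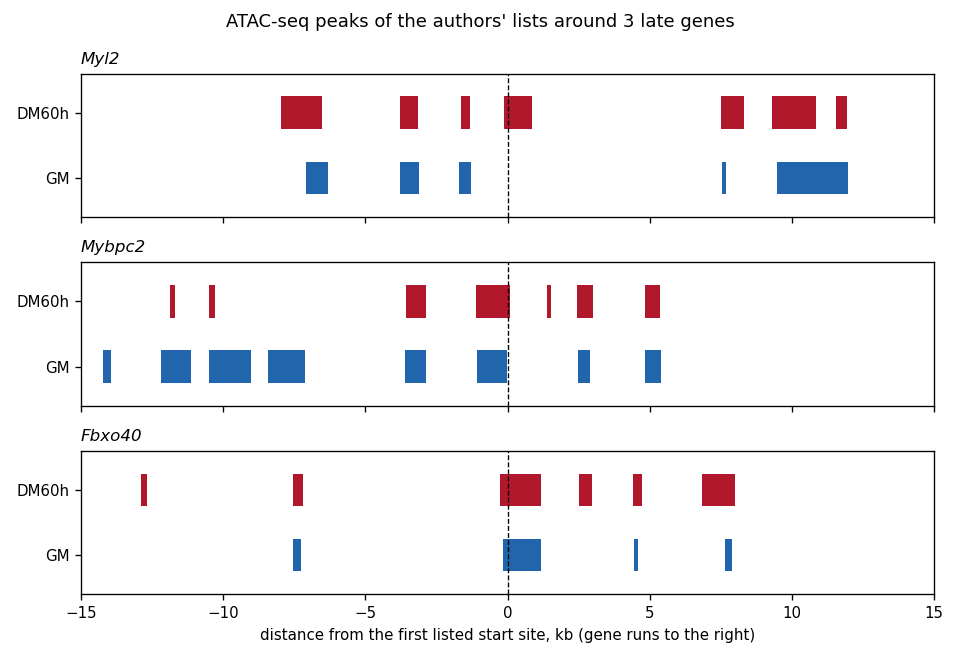
Bars are ATAC-seq peaks of the authors' lists at DM60h (upper track, red) and in GM (lower track, blue) around Myl2, Mybpc2 and Fbxo40, against the distance in kb from the first listed start site. Myl2 has a bar over its start in the DM60h track and none there in the GM track; Fbxo40 has one in both, and the GM peak of Mybpc2 ends just before the start.

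Atp2a2, the SERCA2 pump that returns calcium to the sarcoplasmic reticulum, had 817, 832 and 812 CPM at DM96h, against 363, 345 and 355 CPM at DM60h. It was already well counted in GM, at 284 ± 6.48 CPM (SD, n = 3), and lowest at DM12h among the earlier groups. Ppp1r12b, a targeting subunit of myosin phosphatase in striated muscle, had 23.5, 21.9 and 22.8 CPM at DM96h and 10.8, 10.7 and 10.6 CPM at DM60h. Neither gene overlapped between the groups, as in all 35 genes, and nothing is read from this. Their ratios of mean CPM, 2.32 and 2.13, were far below that of Myl2.

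**Figure D4:**
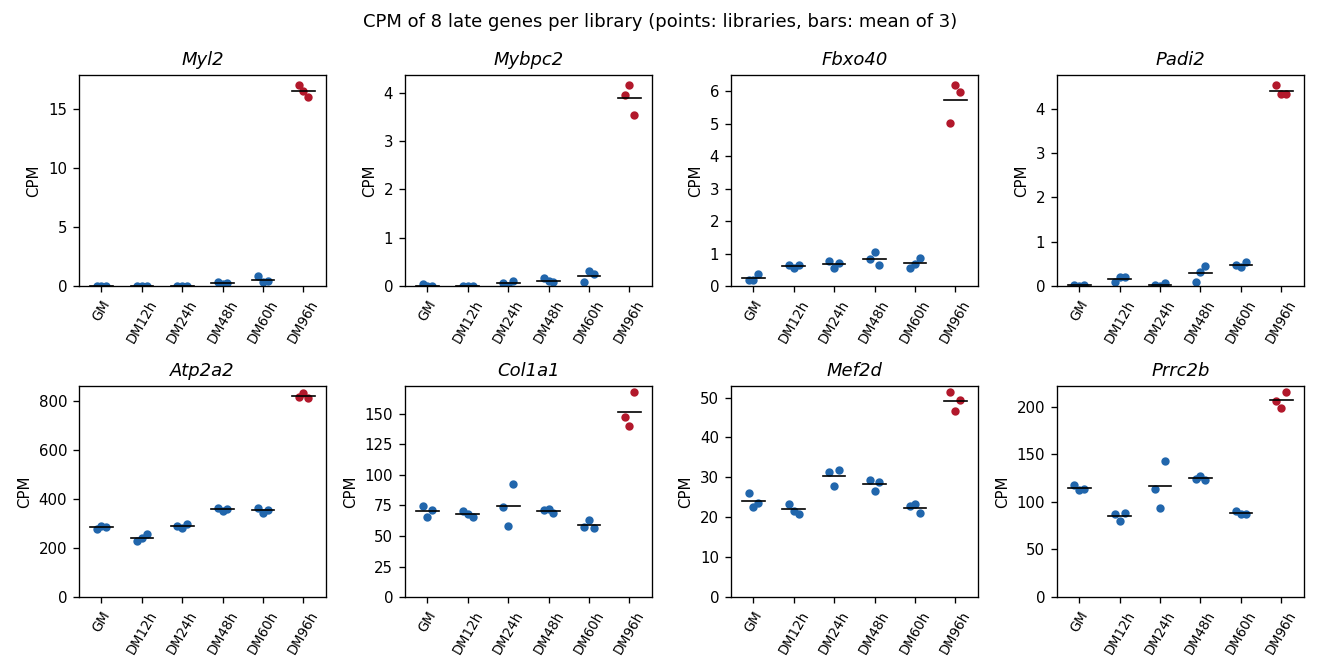
CPM of 8 late genes in each of the 18 libraries (points) with the mean of 3 libraries (bars), groups in time order and DM96h in red. Myl2, Mybpc2, Fbxo40 and Padi2 start near 0, while Atp2a2, Col1a1, Mef2d and Prrc2b start from a level already counted in GM; in each panel the DM96h points lie above all others.

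The membrane transport genes, 3 in number, averaged under 1 CPM in each group before DM96h. Fxyd6, of the FXYD family of small regulators of the sodium-potassium pump, had 2.94, 3.41 and 2.79 CPM at DM96h, against 0.119, 0.252 and 0.183 CPM at DM60h. Slc26a7, an anion exchanger, had 3.42, 3.02 and 2.63 CPM at DM96h and 0.437, 0.612 and 0.214 CPM at DM60h. Slco5a1, of the organic anion transporter family, had 3.71, 3.87 and 4.04 CPM at DM96h and 0.556, 0.828 and 0.794 CPM at DM60h. The ratios of mean CPM were 16.5, 7.18 and 5.33 in this order. The DM96h libraries of each gene lay above its DM60h libraries, as in all 35 genes, and nothing is read from this. Fxyd6 had no more than 1 read in any library before DM60h and was the single late gene of 26 with no peak at its start in either condition.

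Genes of the cytoskeleton and of small GTPase signalling formed the largest role, with 9 genes. Shroom3, which recruits actin-contracting machinery to the cell cortex, had 5.88, 5.88 and 7.26 CPM at DM96h, against 1.31, 0.900 and 1.34 CPM at DM60h. Pstpip1, an F-BAR adaptor best known from blood cells, had 6.36, 6.40 and 5.91 CPM at DM96h and 1.51, 1.15 and 1.01 CPM at DM60h. Both stood about equally far apart between the groups, with ratios of 5.35 and 5.09. Neither overlapped between the groups, as in all 35 genes, and nothing is read from this. Cyfip2, a subunit of the actin-regulating WAVE complex, had 3.71, 4.29 and 3.48 CPM at DM96h and 0.715, 0.936 and 0.733 CPM at DM60h. Nav2, a neuron navigator protein of microtubule ends, had 36.1, 34.1 and 38.2 CPM at DM96h and 13.7, 10.4 and 10.7 CPM at DM60h.

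Exchange factors for small GTPases were among the same 9 genes. Trio, which activates small GTPases of the actin cytoskeleton, had 245, 233 and 258 CPM at DM96h, against 117, 116 and 121 CPM at DM60h. Arhgef26, another exchange factor, had 5.40, 5.20 and 5.16 CPM at DM96h, against 2.38, 1.62 and 1.65 CPM at DM60h. Rhobtb2, an atypical GTPase, had 57.6, 57.9 and 58.0 CPM at DM96h, against 24.4, 22.1 and 23.3 CPM at DM60h. In none of these 3 did a DM96h library overlap with DM60h, as in all 35 genes, and nothing is read from this. Pde4dip (myomegalin), a scaffold of the centrosome and Golgi, had 225, 220.0 and 238 CPM at DM96h and 102, 94.3 and 97.8 CPM at DM60h. Pacsin3, an F-BAR protein that bends membranes, had 109, 108 and 112 CPM at DM96h and 52.9, 53.7 and 50.9 CPM at DM60h. In this role the ratios of mean CPM lay between 2.08 for Trio and 5.35 for Shroom3.

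Matrix and signalling genes had ratios between 2.24 and 2.72. Col1a1, the alpha 1 chain of fibrillar collagen I, had 148, 140.0 and 167 CPM at DM96h, against 57.4, 63.0 and 56.3 CPM at DM60h. Its earlier libraries lay between 56.3 and 92.5 CPM, the highest being DM24h library 3. Adamts14, a procollagen N-proteinase that trims fibrillar collagens, had 26.8, 25.2 and 30.7 CPM at DM96h and 13.7, 11.7 and 11.4 CPM at DM60h. Pmepa1, a membrane protein induced by TGF-beta that binds Smads, had 79.9, 79.5 and 74.5 CPM at DM96h and 35.8, 32.0 and 35.7 CPM at DM60h. Each of the 3 lay higher in all DM96h libraries than in any DM60h library, as did all 35 genes, and nothing is read from this.

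A receptor, a signal relay and an energy sensor were in the same role. Notch1, a receptor that holds muscle progenitors back from differentiation, had 59.7, 58.5 and 59.4 CPM at DM96h, against 25.2, 27.2 and 26.6 CPM at DM60h. Dvl3, a Dishevelled relay of Wnt signals, had 8.05, 7.48 and 8.80 CPM at DM96h and 2.98, 3.35 and 2.63 CPM at DM60h. Its GM libraries, at 5.52, 5.37 and 4.99 CPM, stood above those of DM60h, so its DM60h level lay under its GM level. Prkaa2, the alpha 2 catalytic subunit of AMPK used in muscle, had 9.20, 8.26 and 8.11 CPM at DM96h and 3.29, 3.13 and 3.14 CPM at DM60h.

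Regulators of transcription and RNA were represented by 5 genes. Mef2d, a MEF2 transcription factor of muscle, had 51.5, 46.6 and 49.3 CPM at DM96h, against 22.7, 23.3 and 21.1 CPM at DM60h. Klf5, a zinc-finger transcription factor, had 17.98, 16.0 and 16.7 CPM at DM96h and 6.39, 6.30 and 7.45 CPM at DM60h. Rbm38, an RNA-binding protein and p53 target, had 11.2, 10.7 and 12.5 CPM at DM96h and 4.09, 3.38 and 3.48 CPM at DM60h. Mef2d peaked among the earlier groups at DM24h and Rbm38 in GM, so the 2 did not share an early course. Prrc2b, a large proline-rich coiled-coil protein, had 206, 198 and 215 CPM at DM96h and 90.4, 86.9 and 87.7 CPM at DM60h. Zfp106, an RNA-binding zinc-finger protein whose loss causes a motor neuropathy in mice, had 395, 366 and 371 CPM at DM96h and 192, 177 and 187 CPM at DM60h.

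The remaining 8 genes act in protein turnover, trafficking and other processes. Fbxo40 encodes a muscle F-box subunit of a ubiquitin ligase that targets the insulin-signalling adaptor IRS1. It had 5.01, 6.21 and 5.98 CPM at DM96h, against 0.556, 0.684 and 0.885 CPM at DM60h. Its GM libraries, at 0.186, 0.183 and 0.373 CPM, were lower still, a difference that log2(CPM+1) compresses at such levels. Fbxo40 was covered by a peak at its first start at both times, chr16:36989290-36990743 at DM60h and chr16:36989290-36990641 in GM. The window of start 1 is shown because it holds a pair of E-boxes (CAGCTG, in capitals), which begin at -81 and -53. The window of start 2, chr16:36979087-36979386, is not shown. It holds CAGCTG at -89, and no peak of either condition lay over it.
Fbxo40 start 1, chr16:36990418-36990717, minus strand: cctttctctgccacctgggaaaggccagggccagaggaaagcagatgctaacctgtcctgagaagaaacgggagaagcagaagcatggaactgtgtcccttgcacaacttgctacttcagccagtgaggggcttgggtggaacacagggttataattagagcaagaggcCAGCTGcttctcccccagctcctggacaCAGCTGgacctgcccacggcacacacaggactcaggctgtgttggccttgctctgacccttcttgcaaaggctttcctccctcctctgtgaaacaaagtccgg

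Padi2, a peptidylarginine deiminase that turns arginine into citrulline in proteins, had 4.54, 4.32 and 4.33 CPM at DM96h, against 0.476, 0.432 and 0.549 CPM at DM60h. Crym, the mu-crystallin that binds thyroid hormone, had 3.58, 3.64 and 3.78 CPM at DM96h and 0.754, 1.01 and 0.855 CPM at DM60h. March11, a membrane-bound ubiquitin ligase, had 9.39, 9.40 and 9.10 CPM at DM96h and 4.53, 3.82 and 4.12 CPM at DM60h. Padi2 and Crym started from under 1 CPM on average at DM60h, and March11 from 4.15 CPM. Uso1, the Golgi tether p115, had 59.4, 62.8 and 58.4 CPM at DM96h and 27.6, 27.98 and 27.5 CPM at DM60h. It was at about 2 times its DM60h level in every DM96h library. Anxa11, a calcium-dependent membrane-binding annexin, had 23.2, 22.2 and 23.02 CPM at DM96h and 10.2, 10.0 and 12.0 CPM at DM60h. Armcx4 had 41.2, 40.1 and 36.1 CPM at DM96h and 17.4, 18.9 and 18.1 CPM at DM60h. As in all 35 genes, the DM96h libraries of those named here lay above their DM60h libraries, and nothing is read from this.

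The 35 genes were flat early on the log2(CPM+1) scale, and their small early movements were not alike. The lowest of the 5 earlier group means was that of GM in 9 genes, DM12h in 14, DM24h in 8, DM48h in 1 and DM60h in 3. The highest was that of GM in 5 genes, DM12h in 2, DM24h in 6, DM48h in 11 and DM60h in 11. At DM60h, 9 genes averaged under 1 CPM, 8 between 1 and 10 CPM, and 18 at least 10 CPM. In plain CPM the earlier group means spanned more than 2-fold in 8 genes, 7 of which averaged under 1 CPM at DM60h, where adding 1 flattens differences. Padi2 is such a case, with a ratio of 20.5 between its highest and lowest earlier group means. The mean was lower at DM12h than in GM and lower at DM60h than at DM48h in 14 of the 35 genes, against 27.7% of the protein-coding genes tested. Uso1 and Prrc2b were among these 14.

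One library stood out in a few of the genes. DM24h library 3 was at least 0.5 above both other DM24h libraries, in log2(CPM+1), in Nav2 by 0.57, Dvl3 by 0.63 and Arhgef26 by 0.59. These are 3 of the 35 genes, against 1.14% of the protein-coding genes tested; it lay above both others by any margin in 19 of the 35, against 44.9%. Without that library the rule chose the same 35 genes.

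In RNA from whole cultures, fewer cells of a type and less RNA per cell cannot be told apart. Each library held between 24.2 and 36.4 M counts, with M for 1000000. Protein-coding genes held between 67.4% and 69.2% of the counts at DM96h and between 65.2% and 65.9% at DM60h. Myog, the factor that marks cells committed to fusion, averaged 768 CPM at DM96h and 366 CPM at DM60h. The 14 early myotube genes on a hand-made list were led by Acta1, Mylpf and Myh3. They summed to 7061 to 7385 CPM at DM96h and 2272 to 2655 CPM at DM60h. All 14 were called higher, against 22.6% of all genes tested, and the list was chosen with earlier results of these data known. The 35 late genes summed to 2705 to 2786 CPM at DM96h and 1178 to 1226 CPM at DM60h. Of the markers of other cells, 14 macrophage markers summed to 5.17 to 5.75 CPM at DM96h and 5.86 to 7.11 CPM at DM60h, and 11 endothelial markers to 4.26 to 5.22 CPM and 5.92 to 6.66 CPM at the same times. Ptprc had no read at DM96h, and Adgre1, Sox10, Ibsp and Rbfox3 had none in any library. The 10 glial markers summed to 203 to 211 CPM at DM96h and 116 to 118 CPM at DM60h, led by Erbb3, Pmp22 and Cnp. Sums of the neuron, epithelial, adipocyte, bone and tendon lists were lower in each DM96h library than in each DM60h library, and the smooth muscle sum overlapped, at 1659 to 1831 CPM at DM96h and 1638 to 1684 CPM at DM60h. The part of myotube number, RNA composition or other cells in the differences of the 35 genes was not tested.

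Of the 35 genes, 6 are on a hand-made list, and the other genes of those 4 lists were tested on the same contrast over all 15303 genes, whose median log2 fold change was -0.03. Of 23 other mature muscle isoforms, 17 were tested, 13 were called higher at DM96h and none lower, with a median log2 fold change of 1.61. Of all genes tested, 22.6% were called higher and 24.6% lower. The lists were chosen with earlier results of these data known, so their counts give no independent test. The fast adult myosin heavy chain Myh1 averaged 391.6 ± 8.53 CPM at DM96h and 60.1 ± 4.26 CPM at DM60h (SD, n = 3 each), a log2 fold change of 2.68 ± 0.07 (SE). The same edgeR fit gave 2.67 ± 0.15 for Myh2, 2.47 ± 0.13 for Myh4, both fast heavy chains, and 2.24 ± 0.16 for Pygm, muscle glycogen phosphorylase. Myh1 already averaged 60.1 CPM at DM60h, against 1.97 CPM in GM. Myl2 and Mybpc2 also had more reads at DM60h than in GM, at levels where log2(CPM+1) compresses such differences.

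Of the 15 other genes of denervation and atrophy, 14 were tested and all 14 were called higher, with a median of 0.70. Of all genes tested, 22.6% were called higher. Chrng, the fetal subunit of the muscle acetylcholine receptor, rose by 1.66 ± 0.06 (SE), to 177 ± 10.3 CPM at DM96h, against 55.1 ± 3.82 CPM at DM60h (SD, n = 3 each). Trim63, the ubiquitin ligase MuRF1, rose by 1.305 ± 0.08. Chrnd, another receptor subunit, rose by 0.97 ± 0.06. Most genes of the list already averaged more at DM60h than in GM, where Chrng averaged 3.53 CPM. Foxo1 and Hdac4 averaged less at DM60h than in GM. Fbxo40, the late gene on this list, is known to be induced in denervated muscle.

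The matrix list was mixed. Of 33 other matrix and collagen genes, 29 were tested, 10 were called higher and 12 lower at DM96h, with a median of -0.06, against 22.6% higher and 24.6% lower of all genes tested. Fibronectin, Fn1, rose by 1.54 ± 0.16 (SE) and fibrillin, Fbn1, by 0.87 ± 0.06, while Tnc (tenascin C) fell by 1.44 ± 0.06 and Col18a1 fell by 0.95 ± 0.07. Col1a2, which encodes the alpha 2 chain that pairs with that of Col1a1 in collagen I, averaged 862 CPM at DM96h and 915 CPM at DM60h and did not pass the test; it was chosen for mention after its values were seen. Whether the 2 chains differed from each other in their change was not tested.

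Prrc2b and Notch1 are on a list of very long transcripts. Of its 38 other genes, all tested, 34 were called higher and 2 lower, with a median of 0.86. Of all genes tested, 22.6% were called higher and 24.6% lower. Polr2a, the largest subunit of RNA polymerase II, averaged 58.5 ± 3.36 CPM at DM96h and 9.72 ± 0.509 CPM at DM60h (SD, n = 3 each), and it had averaged 63.3 CPM in GM. Its log2 fold change was 2.57 ± 0.30 (SE), with 2.56 ± 0.23 for the basement membrane proteoglycan Hspg2, 2.02 ± 0.20 for the endocytic receptor Lrp1 and 1.99 ± 0.25 for the histone methyltransferase Kmt2d. These 4 genes were lower at DM60h than in GM, and Polr2a and Lrp1 averaged no more at DM96h than in GM. Some late genes that are not on this list, among them Trio, Dvl3, Uso1 and Col1a1, also averaged less at DM60h than in GM. Others, such as Atp2a2 and Pacsin3, averaged more. The part of this list's change in the differences of Prrc2b, Notch1 or other late genes was not tested.

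**Figure D5:**
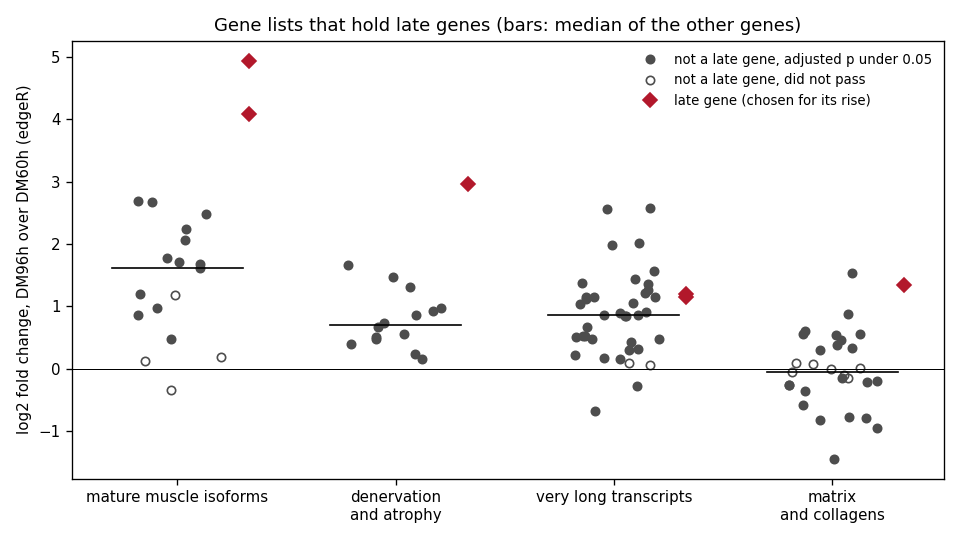
Points are log2 fold changes at DM96h over DM60h from edgeR for the genes of 4 lists, filled where the adjusted p was under 0.05; red diamonds are the late genes on each list and bars the median of the others. The mature muscle, denervation and long-transcript lists lie mostly above 0, while the matrix list lies around a median of -0.06.

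Chromatin at DM60h and in GM was measured before the late genes stood higher and was not used to choose them. RefSeq start sites were found for 26 of the 35 genes; Slco5a1, Pmepa1, Slc26a7, Atp2a2, Crym, Col1a1, Rhobtb2 and Klf5 were among those without one. A peak within 1000 bases of a start was listed for 25 of the 26 at DM60h (96.2%) and for 24 in GM (92.3%). Among 10016 other protein-coding genes that passed the filter, the shares were 95.9% at DM60h and 95.6% in GM. Nearly all genes in both sets had a listed peak, so this count leaves little room for a difference. Myl2, the gene with a peak at DM60h alone, is 3.85% of the 26, against 0.829% of the others. With a fold of at least 4 asked of a peak, its peak at the start drops out. A window wide enough to reach its upstream GM peak, at -1711 to -1297, gives Myl2 a peak in both conditions. There is 1 list per condition for both libraries, so no test between conditions was possible.

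With peaks of a fold enrichment of at least 4, the counts fell to 12 of the 26 late genes at DM60h (46.2%) and 16 in GM (61.5%), against 80.0% and 79.9% of the other genes. At that fold, 0 late genes had a peak at DM60h alone, against 3.16% of the others, and 4 (15.4%) had one in GM alone, against 3.00%. No test of these differences was made. Mef2d, at 2.02, and Padi2, at 2.22, had the lowest folds at DM60h, and Ppp1r12b, at 8.22, the highest; the folds are the authors'. Over the whole gene spans, the 35 genes held 584 peaks at DM60h, of which 26.4% overlapped no GM peak, and 503 in GM, of which 13.3% overlapped no DM60h peak. For the other genes these shares were 22.6% and 15.9%. At least 1 peak at DM60h alone was found in 29 of the 35 spans (82.9%), against 44.2% of the others, but the median span was 48713 bases, against 23797 bases. Per 100 kb, the late genes held 18.4 peaks at DM60h and 15.8 in GM, against 13.1 and 12.1 in the other genes. Nav2 held 42 of the peaks seen at DM60h alone, the most of any late gene, and its span is 651028 bases long.

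Loops from the authors' table have anchors of 25 kb. A loop called at DM60h alone had an anchor on the start in 13 of 26 late genes (50.0%), against 49.4% of the others. A loop called in GM alone was found for 13 (50.0%), against 60.2%, a shared loop for 6 (23.1%), against 20.5%, and no loop for 8 (30.8%), against 21.6%. Myl2 and Arhgef26 had 2 loops each at DM60h alone and none in GM, and Mybpc2 and Armcx4 had 1 each. Prrc2b, Dvl3 and Pstpip1 showed the opposite, with 5, 2 and 1 loops in GM alone and none at DM60h. The table holds no counts per library, so these numbers carry no test.

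Promoter windows of 300 bases were searched on both strands in the 33 RefSeq windows of these 26 genes. CAGCTG was found in 9 of the 33 (27.3%), against 15.7% of 12359 windows of other tested protein-coding genes and 16.3% of all 32851 windows. The 9 belong to Arhgef26, Dvl3, Fbxo40, Fxyd6, Myl2, Nav2 and Pacsin3, so several windows share a gene. GGAATG was in 6 windows (18.2%, against 12.1% and 14.7%), those of Arhgef26, Mybpc2, Notch1, Pacsin3, Ppp1r12b and Pstpip1. The MEF2-type motif CTANNNNTAG was in 1 window, of Pacsin3 (3.03%, against 3.05% and 3.69%), and TATAAA in 1, of Myl2 (3.03%, against 7.20% and 13.6%). GGGCGG, the GC box, was in 21 windows (63.6%, against 61.8% and 35.7%), and the median G and C content was 60.7% in late and in other tested windows. A match describes letters in the window and is not a bound site, and none of these shares was tested.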

How the data were processed

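The RNA values are whole-number counts per gene that the authors deposited, unscaled. STAR, RSEM (which gives estimated counts) and mm10 are named by the submitters' processing notes. How whole counts were reached was not given in the sources used here. Each peak of the deposited ATAC-seq lists has a fold enrichment, a ratio, and a −log10 q value; MACS2 2.2.7 and Bowtie2 2.2.6 are named by the submitters' processing notes. There is 1 list per condition for 2 libraries. The deposited loops carry a condition and no count.

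Times and groups come from the sample titles; per the labels, the growth text's last time varies between samples, past 96 h in most, while the extraction text and treatment labels give 96 h. Group means are of log2(CPM+1) with a pseudocount of 1. Genes were tested by edgeR 4.0.16 under R 4.3.3 (filterByExpr, TMM scaling, all 18 libraries, quasi-likelihood F test, 12 residual degrees of freedom, Benjamini-Hochberg adjustment over 15303 genes, threshold 0.05). Sequences and start sites are from RefSeq (GRCm38.p6). Counts of list genes leave out late genes. The test was checked on simulated data. Alternatives were another scaling, no filter, DESeq2 1.42.0, a replicate block, fewer libraries, other thresholds and other peak windows. In each list at most 4 called genes with the largest change are named; 34 late genes are named to account for each, and 1 late gene and a few other genes are not reported here. The late genes and the lists were chosen with earlier results of these data known. Domain calls were not used here.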

Additional observations from a re-analysis of the deposited data

How the results depend on the processing

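Membership depended on its thresholds. With the earlier means within 0.5 of each other there were 21 late genes, and with a limit of 1 there were 77; asking for a difference of 1.5 left 9. The same 3 settings left 3, 10 and 3 late genes on a hand-made list. With effective library sizes there were 37, of which 31 were shared, and with protein-coding totals 36, of which 22 were shared and Myl2, Fbxo40, Padi2 and Shroom3 were lost. Leaving out 1 library gave 33 to 41 late genes, with 5 to 6 on a list, and 25 were kept throughout; the 10 lost at least once included Anxa11, Dvl3, Fxyd6, March11, Myl2, Ppp1r12b, Slc26a7, Uso1 and Zfp106. With peaks of a fold of at least 4, the late genes with a peak at DM60h numbered 12 in place of 25.

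Genes called higher at DM96h numbered 3455 and lower 3769; the alternatives gave 3079 to 3766 higher and 3194 to 3753 lower. With the replicate number as a block they were 3390 and 3725. Same-numbered libraries of DM96h and DM60h did not deviate together (correlations of -0.011, -0.0431 and 0.0587 for numbers 1 to 3). The other groups were not compared in this way. Whether same-numbered libraries share a culture cannot be told from these correlations. Late genes with a DM60h mean under 1 CPM rest on few reads there, which limits the precision of their ratios.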
